A study of Mus musculus with 22 samples.

Results

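The antigen presentation genes B2m, H2-K1, H2-D1, Tap1, Tap2, Cd74, H2-Aa and H2-Ab1 were followed in bulk RNA sequencing of brain from mice bred for a tamoxifen-induced deletion of Smc3 in forebrain neurons. Smc3 encodes a subunit of cohesin, the ring complex that holds sister chromatids together and shapes chromatin loops. The genes were picked by name, and all 8 were found among the 20565 genes of the deposited tables, of which 1 holds males and the other females. All 8 passed the filter on low counts in each fit described here.

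The 22 libraries fall into 4 groups, namely 6 males labelled cKO, 5 males labelled WT, 6 females labelled cKO and 5 females labelled WT. Every animal carried a floxed Smc3 gene and was given tamoxifen by gavage. Animals labelled cKO also carried Camk2a-cre/ERT2, a Cre recombinase that needs tamoxifen and is driven by the Camk2a promoter, a driver for excitatory neurons of the forebrain, and animals labelled WT did not. Loss of Smc3 and presence of the Cre transgene therefore cannot be told apart. The labels give an age of 8 weeks and a sampling time of 6 weeks after tamoxifen, and they do not say at which step the age was taken. They name no strain, litter, pooling or sequencing batch, so the p-values measure the spread between these libraries. The tissue field reads prefrontal cortex while the titles read hypothalamus. Titles matched to the counts also carry the word control under either label, without saying what it refers to. Markers of cortical excitatory neurons summed to between 3091 and 4955 CPM (read counts scaled to the size of the library) in libraries labelled cKO, against 2879 to 5922 CPM in those labelled WT. Sex and table cannot be told apart either, since each sex has a table of its own.

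Libraries held 12771354 to 16896239 counted reads. Smc3 itself was higher in the libraries labelled cKO, at 142 ± 16.1 CPM against 82.5 ± 10.1 CPM in males and 129.8 ± 10.1 CPM against 74.4 ± 6.37 CPM in females (mean ± SD, n = 6 labelled cKO and 5 labelled WT in each sex). The log2 fold change was 0.79 in males and 0.81 in females (edgeR quasi-likelihood test, adjusted p = 0.00541 and 9.17e-05). This direction goes against the label cKO, and a count per gene does not show whether the deleted exons are present. The groups are called by their labels for that reason. Male cKO replicate 9 had the highest summed markers of leptomeningeal cells, at 196 CPM, and female cKO replicate 21 the highest of choroid plexus, at 611 CPM. Values of the antigen presentation genes in both sexes that these libraries move by over 1.5 times are given with and without the pair. Other genes, gene lists and marker sums were not compared with and without this pair. Whether the pair moves their values was not tested.

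Antigen presentation runs along 2 routes. In the class I route, peptides cut from proteins inside the cell are pumped into the endoplasmic reticulum by the transporter made of TAP1 and TAP2 and loaded onto a heavy chain, H2-K or H2-D, paired with the light chain beta-2-microglobulin. In the class II route, the alpha and beta chains of I-A, encoded by H2-Aa and H2-Ab1, travel with the invariant chain, CD74, and receive peptides from endocytosed proteins. Most cells make class I, neurons among them at low levels, and neuronal class I is known for a role in synapse refinement. Class II is made mainly by specialised presenting cells, which in and around the brain are border-associated macrophages, dendritic cells, B cells and, when activated, microglia.

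Of the 8 genes, Cd74 rose in females and in the fit of both sexes, and the other 7 did not pass edgeR's test in any fit that held all libraries of its groups. In females labelled cKO Cd74 averaged 6.03 ± 1.03 CPM, against 3.77 ± 0.566 CPM in females labelled WT, which was a fitted fold of 1.60. In males labelled cKO it averaged 6.77 ± 4.13 CPM, against 3.61 ± 1.13 CPM in males labelled WT, and this difference did not pass. The next in order of evidence was H2-K1, a class I heavy chain, whose fitted fold in both sexes was 1.25, on either side of the threshold by the tool and the libraries used. No gene of the 8 fell.

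Per kilobase of exon, the class I chains had the highest levels. Over 22 libraries the median was 78.1 CPM per kb for B2m, 14.4 for H2-D1, 10.1 for H2-K1, 2.68 for Cd74, 2.21 for Tap2, 0.61 for Tap1, 0.47 for H2-Ab1 and 0.33 for H2-Aa. B2m lay far above all others, since its lowest library, at 59.1 CPM per kb, exceeded the highest of H2-D1, at 18.8. Below B2m the ranges of all neighbours in this order overlapped except those of Tap2 and Tap1, and overlaps also reached past a neighbour: the highest library of H2-Ab1, at 2.11 CPM per kb, exceeded the lowest of Cd74, at 1.54. Exon lengths are from another annotation than the one the reads were counted on, so these levels serve for the order only.

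The promoter stretches of the class I chains are shown because these genes varied together from library to library, as described further on, and that of H2-Aa is shown to set a class II chain beside them. RefSeq windows on GRCm38.p6 matched 5 of the 8 genes (B2m, H2-K1, H2-D1, Tap1 and H2-Aa), and Tap2, Cd74 and H2-Ab1 had no match. Each stretch is 155 bases long, reads 5′ to 3′ on the strand of its gene, lies upstream of the annotated start site and is placed so that its X2 box core begins at the same base. B2m is on the plus strand at chr2:122147509-122147663, H2-K1 on the minus strand at chr17:34000334-34000488 (the second of its 2 annotated windows), H2-D1 on the plus strand at chr17:35262893-35263047 and H2-Aa on the minus strand at chr17:34287843-34287997. Capitals mark GAAA followed after any 2 bases by another GAAA (an interferon response core), GGGGATTCC (an NF-kappa-B site), TGACG (the X2 box core, also found in cyclic AMP response elements) and CCAAT (the Y box core), searched on both strands. Read backwards these appear as CGTCA and ATTGG, and the X2 core of H2-Aa overlaps its own reverse match.
B2m: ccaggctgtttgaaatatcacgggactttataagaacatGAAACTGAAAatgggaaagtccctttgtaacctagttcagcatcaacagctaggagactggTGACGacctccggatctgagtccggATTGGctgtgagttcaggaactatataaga
H2-K1: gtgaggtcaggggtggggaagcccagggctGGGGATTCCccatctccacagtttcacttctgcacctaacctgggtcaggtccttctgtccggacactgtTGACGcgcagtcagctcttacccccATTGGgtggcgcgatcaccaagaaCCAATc
H2-D1: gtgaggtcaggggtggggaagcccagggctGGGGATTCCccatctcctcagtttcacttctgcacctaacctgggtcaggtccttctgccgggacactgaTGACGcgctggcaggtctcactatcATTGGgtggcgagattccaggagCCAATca
H2-Aa: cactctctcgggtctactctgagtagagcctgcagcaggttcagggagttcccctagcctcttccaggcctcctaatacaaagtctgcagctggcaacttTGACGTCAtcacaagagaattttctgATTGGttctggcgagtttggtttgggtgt
In all 4 stretches TGACG was followed by ATTGG, 25 bases further on in B2m, H2-K1 and H2-D1 and 26 in H2-Aa, counted from first base to first base. This spacing was chosen after the sequences were seen. The pair at either spacing occurred in 31 of all 32851 windows of the same table (0.0944%), TGACG in 20.8%, CCAAT in 37.4%, the interferon response core in 3.44% and GGGGATTCC in 0.25%. H2-K1 and H2-D1 were identical at 131 of the 155 bases (84.5%), and both had GGGGATTCC ahead of TGACG and CCAAT after ATTGG. B2m was identical to H2-K1 at 35.5% of the bases and to H2-Aa at 23.2%. It alone of the 4 held the interferon response core in the spelling searched, as GAAACTGAAA. Other spellings of such a site were not searched for, so the other stretches may still hold one. The Tap1 window held CCAAT and TGACG in that order. A match describes the letters and does not show that a factor binds there.

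Among the class I chains, B2m had the highest counts. In males labelled cKO it ranged from 52.7 CPM through a median of 68.4 to 78.0 CPM, against 67.0, 50.9, 60.6, 67.9 and 60.2 CPM in males labelled WT (replicates 1, 3, 4, 5 and 6). Females labelled cKO had a lowest, median and highest of 64.2, 71.7 and 100.5 CPM, against 66.5, 67.3, 78.6, 66.0 and 76.1 CPM in females labelled WT (replicates 16, 18, 19, 25 and 26). The groups overlapped in both sexes, and female cKO replicate 21 was the highest library of all. The log2 fold change was 0.13 ± 0.11 in males, 0.12 ± 0.12 in females and 0.12 ± 0.08 in both sexes (± SE, edgeR adjusted p = 0.841, 0.666 and 0.440). Without male cKO replicate 9 and female cKO replicate 21 it was 0.06 in both sexes (adjusted p = 0.756).

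H2-K1 encodes the heavy chain of H2-K, whose groove holds the peptide. It stood at 24.3, 32.3 and 37.9 CPM (lowest, median and highest) in males labelled cKO, against 27.4, 19.9, 21.5, 23.3 and 30.4 CPM in males labelled WT. Females labelled cKO had 28.1, 31.7 and 46.9 CPM, against 26.8, 26.9, 35.4, 19.3 and 29.4 CPM in females labelled WT. In both sexes 6 of 6 libraries labelled cKO lay above the median of those labelled WT, though the groups overlapped. The log2 fold change was 0.34 ± 0.14 in males (adjusted p = 0.460), 0.31 ± 0.16 in females (adjusted p = 0.367) and 0.32 ± 0.11 in both sexes, with a 95% interval of 0.10 to 0.55 (edgeR adjusted p = 0.0763). That last value lies near the threshold. DESeq2 called it (0.33, adjusted p = 0.0426), as did edgeR without male WT replicate 6 (0.37, adjusted p = 0.0442) or without female WT replicate 19 (0.37, adjusted p = 0.0425), while without male cKO replicate 9 and female cKO replicate 21 together it was 0.23 (adjusted p = 0.212).

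H2-D1, the other classical heavy chain, differed less. Males labelled cKO had 30.5, 39.0 and 48.4 CPM as lowest, median and highest, against 38.5, 28.1, 30.3, 37.1 and 42.3 CPM in males labelled WT. Females labelled cKO gave 33.9, 38.5 and 44.5 CPM, against 33.8, 33.2, 47.6, 27.9 and 36.4 CPM in females labelled WT. The highest female library was thus 1 labelled WT, replicate 19. Its log2 fold change in both sexes was 0.12 ± 0.09, with a 95% interval of -0.07 to 0.31 (edgeR adjusted p = 0.502). The heavy chain genes are close copies of each other, so reads that fit several of them may have been counted for either gene or left out.

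The transporter genes gave small values with wide errors. Tap1, which encodes a subunit of the peptide pump, ranged from 2.51 to 5.13 CPM in males labelled cKO (median 3.43), against 4.73, 2.93, 3.09, 2.59 and 3.81 CPM in males labelled WT. In females labelled cKO it ranged from 2.97 to 5.38 CPM (median 3.92), against 3.39, 3.09, 3.52, 3.20 and 3.30 CPM in females labelled WT. The 5 females labelled WT lay within a narrow band, and 4 of 6 females labelled cKO lay above it and 1 below. Its log2 fold change was 0.06 ± 0.22 in males, 0.27 ± 0.16 in females and 0.16 ± 0.13 in both sexes (edgeR adjusted p = 0.991, 0.474 and 0.565). Without the pair of libraries named above it was 0.09 in both sexes (adjusted p = 0.785).

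Tap2, the partner subunit, ranged from 7.66 to 12.9 CPM in males labelled cKO (median 9.36), against 10.2, 8.86, 7.35, 8.39 and 10.7 CPM in males labelled WT. Females labelled cKO spanned 5.88 to 12.3 CPM (median 7.88), against 10.9, 7.79, 6.16, 6.08 and 7.41 CPM in females labelled WT. The groups overlapped in both sexes. In both sexes together the log2 fold change was 0.13 ± 0.13, with a 95% interval of -0.13 to 0.40 (edgeR adjusted p = 0.629). Without the same pair it was 0.02 (adjusted p = 0.965).

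Cd74 encodes the invariant chain, which guards the class II groove on the way to the endosome. In males labelled cKO it had 89, 226, 60, 60, 87 and 68 reads (replicates 8, 9, 10, 12, 13 and 14), against 78, 40, 37, 34 and 62 reads in males labelled WT. As levels these were 4.07, 5.37 and 14.9 CPM as lowest, median and highest, against 5.20, 3.16, 2.72, 2.59 and 4.38 CPM in males labelled WT. Male cKO replicate 9 stood far above the other libraries, and the groups overlapped through male WT replicates 1 and 6.

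In females labelled cKO Cd74 had 85, 102, 120, 72, 83 and 89 reads (replicates 20, 21, 22, 23, 24 and 27), against 65, 59, 48, 46 and 63 reads in females labelled WT. The levels were 4.62, 5.88 and 7.76 CPM as lowest, median and highest, against 4.33, 3.80, 3.52, 2.94 and 4.25 CPM in females labelled WT. All 6 females labelled cKO lay above all 5 labelled WT. Of the genes tested in females 0.949% separated in this way, and 0.745% of those tested in males.

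The log2 fold change of Cd74 was 0.91 ± 0.35 in males, with a 95% interval of 0.13 to 1.68 (edgeR adjusted p = 0.394), and 0.68 ± 0.15 in females, with an interval of 0.36 to 1.01 (adjusted p = 0.0253). In both sexes it was 0.79 ± 0.20, with an interval of 0.38 to 1.20 (adjusted p = 0.0136). The effect in females minus that in males was -0.23, with an interval of -1.05 to 0.60 (adjusted p = 1), so the data allow a sizeable difference either way. The authors' deposited table has Cd74 at 0.91 with an adjusted p of 0.268 in males, and at 0.69 with an adjusted p of 0.00237 in females.

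The call in both sexes held when any 1 of the 22 libraries was left out (log2 fold change 0.59 to 0.86, edgeR adjusted p 0.00829 to 0.0303), and without male cKO replicate 9 and female cKO replicate 21 together (0.58, adjusted p = 0.0150). The call in females was lost without cKO replicate 21, 22 or 27 or WT replicate 18, 19 or 25 (0.59 to 0.68, adjusted p 0.0558 to 0.0773). It was also lost in 1 fit of all 4 groups (0.68, adjusted p = 0.316). In males the value was 0.51 without cKO replicate 9.

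H2-Aa and H2-Ab1, the class II alpha and beta chains that the invariant chain escorts, were the least abundant of the 8 per kilobase. H2-Aa had 48, 88, 6, 12, 9 and 20 reads in males labelled cKO (replicates 8, 9, 10, 12, 13 and 14), against 8, 15, 20, 11 and 44 reads in males labelled WT. In females labelled cKO it had 28, 36, 12, 6, 20 and 44 reads, against 22, 10, 15, 24 and 13 reads in females labelled WT. Libraries labelled cKO thus lay both above and below those labelled WT in each sex. The log2 fold change was 0.53 ± 0.66 in males, 0.51 ± 0.43 in females and 0.52 ± 0.41 in both sexes (edgeR adjusted p = 0.922, 0.611 and 0.526).

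H2-Ab1 had 49, 82, 10, 9, 19 and 21 reads in males labelled cKO, against 15, 13, 17, 11 and 38 reads in males labelled WT. In females labelled cKO it had 25, 25, 18, 13, 24 and 23 reads, against 17, 18, 17, 17 and 16 reads in females labelled WT. Male cKO replicates 8 and 9 and male WT replicate 6 were high for both chains. Fitted differences on the log2 scale were 0.67 ± 0.56 in males, 0.30 ± 0.21 in females and 0.49 ± 0.31 in both sexes (edgeR adjusted p = 0.836, 0.518 and 0.403). Without male cKO replicate 9 and female cKO replicate 21 the values in both sexes were 0.13 for H2-Aa and 0.20 for H2-Ab1 (adjusted p = 0.912 and 0.763).

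**Figure D1:**
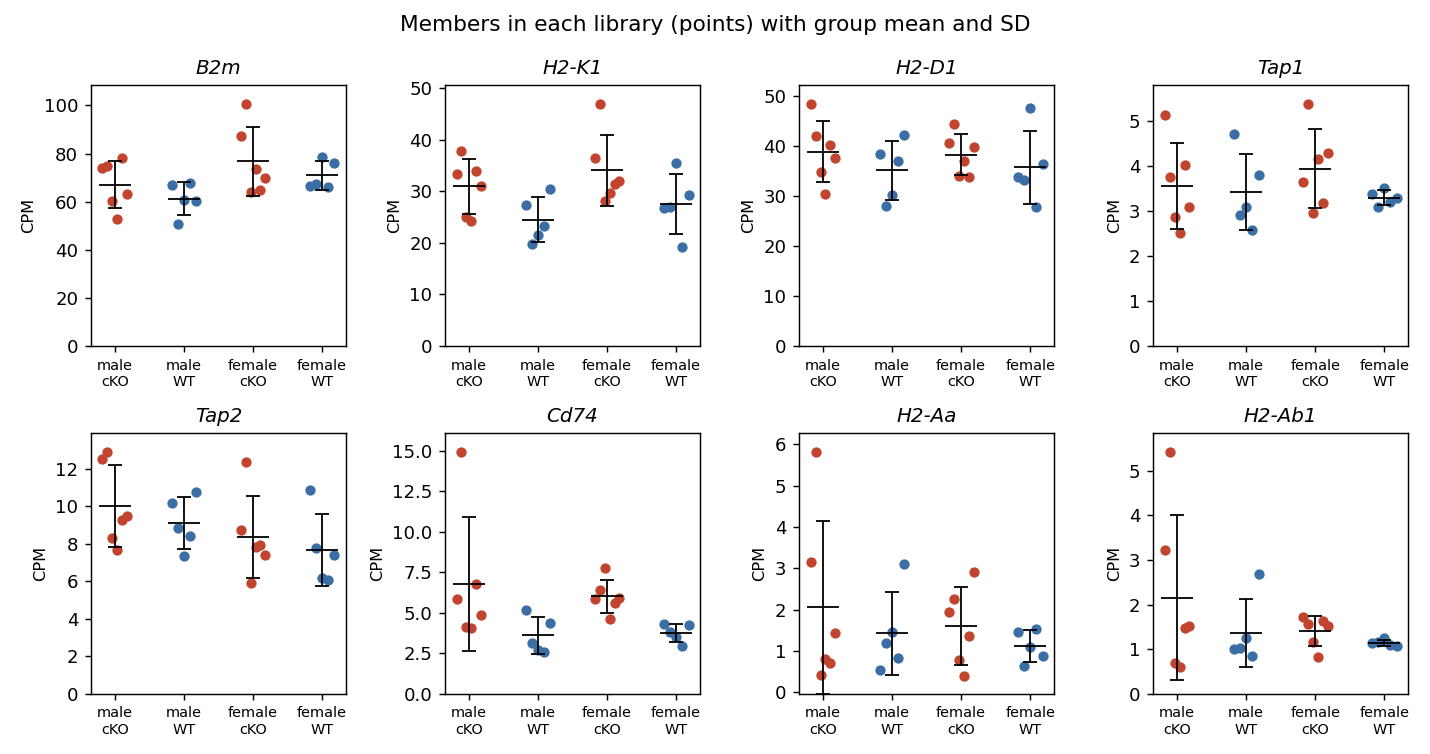
Level of each of the 8 genes in CPM (y axis, linear) in every library (points) by sex and label (x axis), with the mean (long bar) and SD (whiskers) of each group of 6 labelled cKO or 5 labelled WT. Cd74 in females is the panel in which the 6 points labelled cKO all lie above the 5 labelled WT, and male cKO replicate 9, at 14.9 CPM, is the highest Cd74 library.

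Because the invariant chain and the chains it escorts are usually made by the same cells, the ratio of Cd74 reads to the summed H2-Aa and H2-Ab1 reads was compared, a measure added after the values were seen. In males labelled cKO it was 0.92, 2.26 and 3.75 (lowest, median and highest), against 0.76, 1.43 and 3.39 in males labelled WT. Females labelled cKO had 1.33, 1.78 and 4, against 1.12, 1.67 and 2.17 in females labelled WT. The groups overlapped, and the mean log2 ratio was higher by 0.51 in males and by 0.38 in females labelled cKO (exact 2-sided permutation test, p = 0.325 in each sex, 462 splits, smallest possible p = 0.0043). A change of Cd74 apart from its partners was therefore not detectable with these counts.

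Set against all genes tested, the count of members that passed was small. In males 0 of 8 passed, where 0.584% of 16098 genes did, and in females 1 of 8, where 3.37% of 16123 did. In both sexes together 1 of 8 passed, where 7.55% of 16855 did. In DESeq2 the counts were 0 of 8 in males, 1 in females and 2 in both sexes, where 2.08%, 5.7% and 9.89% of all genes passed. At an unadjusted p under 0.05 edgeR gave 2 of 8 in males, 1 in females and 2 in both sexes, where 9.49%, 15.7% and 20.6% of all genes did. These counts do not set the 8 genes apart from the rest of the table.

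The direction was shared, since all 8 log2 fold changes were above 0 in males, in females and in both sexes. Their medians were 0.24 in males, 0.28 in females and 0.24 in both sexes, where the median over all genes tested was 0.01 in each fit and 52.1%, 52.9% and 51.9% of genes lay above 0. Without male cKO replicate 9 and female cKO replicate 21 the median in both sexes was 0.11, with 8 of 8 above 0. The 8 genes are not independent of each other, as their covariation shows. For the difference between sexes 0 of 8 passed, where 0.0% of 16855 genes did in edgeR and 0 in DESeq2, and 176 genes had an unadjusted p under 0.05, none of them a member. The widest member interval for that difference was that of H2-Aa, at -1.80 to 1.75 on the log2 scale.

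**Figure D2:**
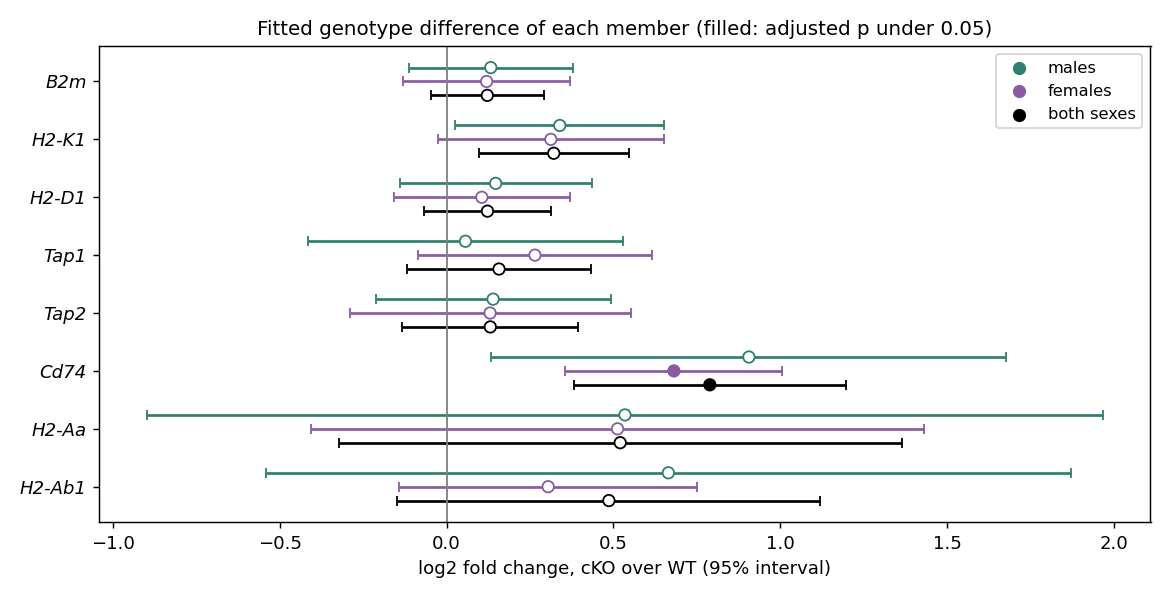
Fitted log2 fold change of libraries labelled cKO over those labelled WT (x axis) with its 95% interval for each gene (y axis), in males, females and both sexes. Filled points passed an adjusted p of 0.05. Cd74 is filled in females (0.68) and in both sexes (0.79), and all points lie right of 0.

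Other genes of the 2 routes were taken from lists, with the members Tap1 and Tap2 counted in the first. Of 13 genes that supply and load class I peptides, 0 passed in males, females or both sexes in edgeR, with medians of 0.02, 0.07 and 0.04. The chaperones Canx and Calr, its most abundant genes, had -0.04 and 0.04 in both sexes (adjusted p = 0.705 and 0.692), and Tapbpl, a peptide editor, -0.35 in females (adjusted p = 0.0988). Psmb8 and Psmb9, subunits of the immunoproteasome, had 0.25 and 0.14 in both sexes (adjusted p = 0.314 and 0.759). At an unadjusted p under 0.05 there were 0 of the 13 in males, 1 in females and 1 in both sexes, Tapbpl in each case.

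Of the other class I heavy chains, 0 of 10 passed in males and in females, and 1 of 11 in both sexes, with medians of -0.03, 0.01 and 0.08. H2-M5, a nonclassical heavy chain gene, fell in the fit of both sexes (log2 fold change -0.79 ± 0.21, edgeR adjusted p = 0.0191). It passed in neither sex alone (adjusted p = 0.298 in males and 0.265 in females). H2-M5 was at 1.39 CPM in males labelled cKO against 2.49 CPM in males labelled WT. In females it was at 0.895 CPM in those labelled cKO against 1.51 CPM in those labelled WT. The most abundant, the neonatal Fc receptor gene Fcgrt and H2-T22, had 0.08 and -0.03 in both sexes (adjusted p = 0.778 and 0.783).

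Other class II pathway genes moved in either direction. In males 0 of 11 passed, in females 1 of 10, a fall, and in both sexes 1 of 11, a rise, with medians of 0.16, 0.05 and 0.10. Ctss, the protease that trims the invariant chain, rose in the fit of both sexes (0.25 ± 0.07, edgeR adjusted p = 0.0305). It passed in neither sex alone (adjusted p = 0.526 in males and 0.162 in females). Ctss was at 52.8 CPM in males labelled cKO against 45.1 CPM in males labelled WT. In females it was at 61.3 CPM in those labelled cKO against 51.1 CPM in those labelled WT. Marchf1, a ubiquitin ligase that removes class II from the cell surface, fell in females, at 33.0 CPM in those labelled cKO against 41.3 CPM in those labelled WT (-0.32 ± 0.08, adjusted p = 0.0464). H2-Eb1, the beta chain of I-E, had 0.47 ± 0.27 in both sexes (adjusted p = 0.342), and the abundant Lgmn and Marchf8 had 0.08 and 0.10 (adjusted p = 0.384 and 0.501).

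Of the regulators of these genes, 21 were tested. Of them 0 passed in males, 1 in females and 0 in both sexes, with medians of 0.09, 0.07 and 0.07. Jak2, a kinase of the interferon-gamma receptor, rose in females, at 60.7 CPM in those labelled cKO against 49.2 CPM in those labelled WT (0.31 ± 0.06, edgeR adjusted p = 0.0132), and had 0.24 in both sexes (adjusted p = 0.0575). Nlrc5 and Ciita, the coactivators of class I and of class II, had 0.50 ± 0.24 and 0.44 ± 0.27 (adjusted p = 0.253 and 0.385). Jak1 and Creb1, the most abundant, had 0.07 and 0.05 (adjusted p = 0.671 and 0.783).

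Of the class I receptors and partners in neurons, Insr was the single gene tested, at -0.08 in both sexes (edgeR adjusted p = 0.526), and Pirb lay under the filter at 0.44 CPM over all libraries. Interferon-stimulated genes, which respond to the cytokines that also induce both routes, counted 0 of 21 past the threshold in males and in females and 1 of 22 in both sexes, with medians of 0.41, 0.26 and 0.36. In both sexes 21 of the 22 lay above 0, where 7.55% of all genes passed and 51.9% lay above 0. The exception was Ly6e, the most abundant of the list, at -0.24 (edgeR adjusted p = 0.0619). Ifitm3, a membrane protein that restricts virus entry, rose in the fit of both sexes (0.59 ± 0.13, edgeR adjusted p = 0.00518). It passed in neither sex alone (adjusted p = 0.235 in males and 0.0898 in females). Ifitm3 was at 14.1 CPM in males labelled cKO against 8.80 CPM in males labelled WT. In females it was at 14.96 CPM in those labelled cKO against 10.6 CPM in those labelled WT.

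Cd74 lies near Camk2a, whose promoter drives the Cre transgene, and was read beside its neighbours. In the RefSeq order on GRCm38 the genes from Cd74 to Camk2a are Cd74, Tcof1, Arsi and Camk2a. Of the 20 nearest genes, 15 were tested, Cd74 among them. In males 1 rose, in females 2 and in both sexes 3, where 0.0808%, 0.62% and 2.68% of all genes rose. None of the 15 fell. Arsi, a sulfatase gene next to Camk2a, was at 4.22 CPM in males labelled cKO against 0.726 CPM in males labelled WT and 3.66 CPM in females labelled cKO against 0.487 CPM in females labelled WT (log2 fold change 2.71 ± 0.23 in both sexes, edgeR adjusted p = 8.33e-08).

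Smim3, 10 genes away on the side of Cd74, rose in the fit of both sexes by 0.46 ± 0.13 (edgeR adjusted p = 0.0320). It passed in neither sex alone (adjusted p = 0.308 in males and 0.334 in females). Tcof1, a nucleolar protein gene between Cd74 and Arsi, had 0.07 ± 0.06 (adjusted p = 0.589), and Rps14, a ribosomal protein gene on the other side of Cd74, had 0.00 ± 0.13 (adjusted p = 0.995). Camk2a itself had -0.19 ± 0.11 (adjusted p = 0.372). Whether the position of Cd74 or the Cre transgene has a part in its value was not tested.

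**Figure D3:**
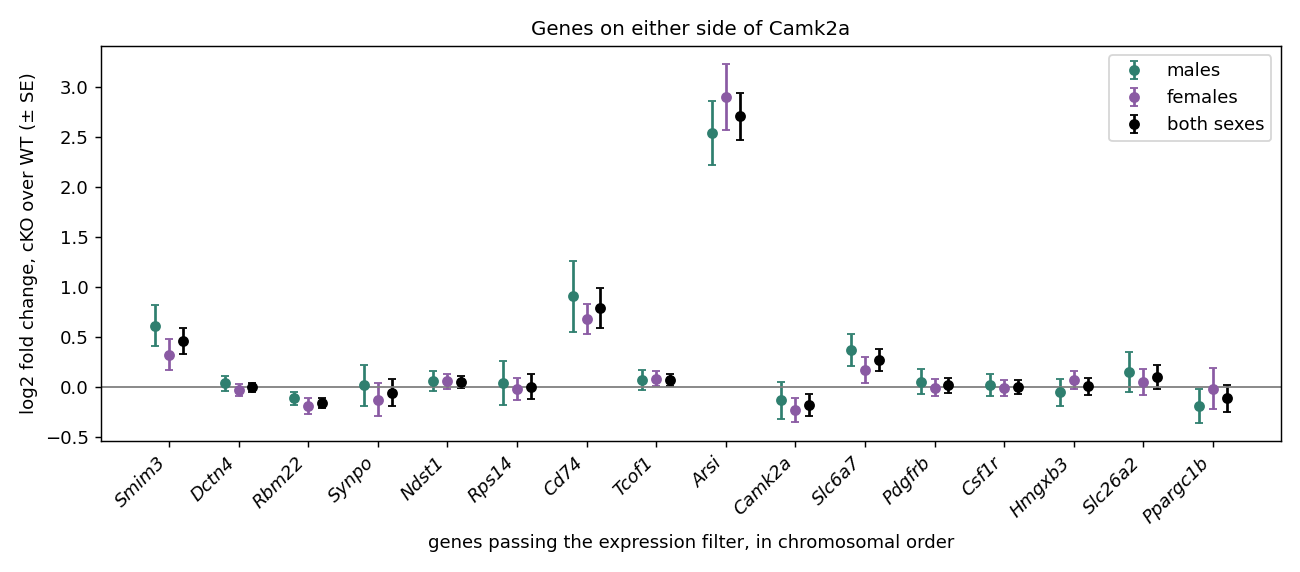
Log2 fold change of libraries labelled cKO over those labelled WT, with its SE (y axis), for Camk2a and the 15 tested genes around it in chromosomal order (x axis), in males, females and both sexes. Arsi (2.71 in both sexes) and Cd74 (0.79) stand above the line, with Tcof1 (0.07) between them.

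The way the members varied among libraries of 1 group was examined with the group means removed, over all 22 libraries and 28 pairs. Of these, 18 pairs passed an adjusted p of 0.05 (permutation test within groups, 100000 resamples, Benjamini-Hochberg). H2-K1 and H2-D1 were closest, at Pearson r = 0.89 and Spearman rho = 0.90 (p = 1e-05 for each, the smallest that 100000 resamples can give, adjusted p = 0.00028 for each). Without the 2 libraries farthest from the median of H2-K1, r was 0.88. Reads shared between these close copies could enter either count, and their part in this value was not tested. B2m, on another chromosome, followed both, with r = 0.79 for H2-K1 and 0.75 for H2-D1 (rho = 0.79 and 0.78, permutation p = 4e-05 and 2e-05, p of rho = 3e-05 and 4e-05, adjusted p = 0.00035 and 0.00028), and r = 0.70 and 0.71 without the 2 farthest libraries.

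Tap1 and Tap2 joined the class I chains in 6 of 6 pairs, with r between 0.49 and 0.69, though some of these calls were unsteady. B2m with Tap2 had rho = 0.47 (permutation adjusted p = 0.0737), and r = 0.32 without the 2 farthest libraries. H2-D1 with Tap2 lost its call in 17 of 22 runs that left out 1 library. Without male cKO replicate 9 and female cKO replicate 21, B2m with Tap1 and each class I chain with Tap2 did not pass (permutation adjusted p 0.0679 to 0.252). H2-Aa and H2-Ab1 had r = 0.85 and rho = 0.86 (permutation p = 5e-05 and 9e-05, adjusted p = 0.00035 and 0.00063), and r = 0.79 without the 2 farthest libraries. Cd74 followed H2-Ab1 less closely, at r = 0.71 and rho = 0.48 (permutation p = 0.00777 and 0.0498, adjusted p = 0.0167 and 0.0774). Its relation to H2-Aa was weaker, at r = 0.47 and rho = 0.29 (permutation p = 0.0912 and 0.243, adjusted p = 0.116 and 0.252). Without the 2 farthest libraries these were 0.65 and 0.39. Between the class I chains and the class II genes 3 of 9 pairs passed, H2-K1 with Cd74 (r = 0.57) and with H2-Ab1 (r = 0.60) among them. Between the transporter genes and the class II genes 3 of 6 passed, all of them pairs of Tap2, and r over the 6 lay between 0.35 and 0.57.

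In males alone 15 of the 28 pairs passed and in females alone 4, each over 11 libraries. Cd74 with H2-Ab1 had r = 0.77 in males (permutation adjusted p = 0.0286) and 0.24 in females (adjusted p = 0.655). Without male cKO replicate 9 and female cKO replicate 21 together 11 passed, H2-K1 with H2-D1 and H2-Aa with H2-Ab1 among them, and Cd74 with H2-Ab1 did not (r = 0.47, permutation adjusted p = 0.130). Among 15209 genes, those most like the mean of B2m, H2-K1 and H2-D1 were Gbp3, Ifitm3 and Psmb9 (r = 0.84, 0.84 and 0.81 over 22 libraries, rho = 0.79, 0.83 and 0.85). Those most like the mean of Cd74, H2-Aa and H2-Ab1 were H2-Eb1, Sod3 and Ogn (r = 0.93, 0.89 and 0.89, rho = 0.91, 0.81 and 0.85). Both sets were picked for the highest r, without a test and without a run that left out any library.

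**Figure D4:**
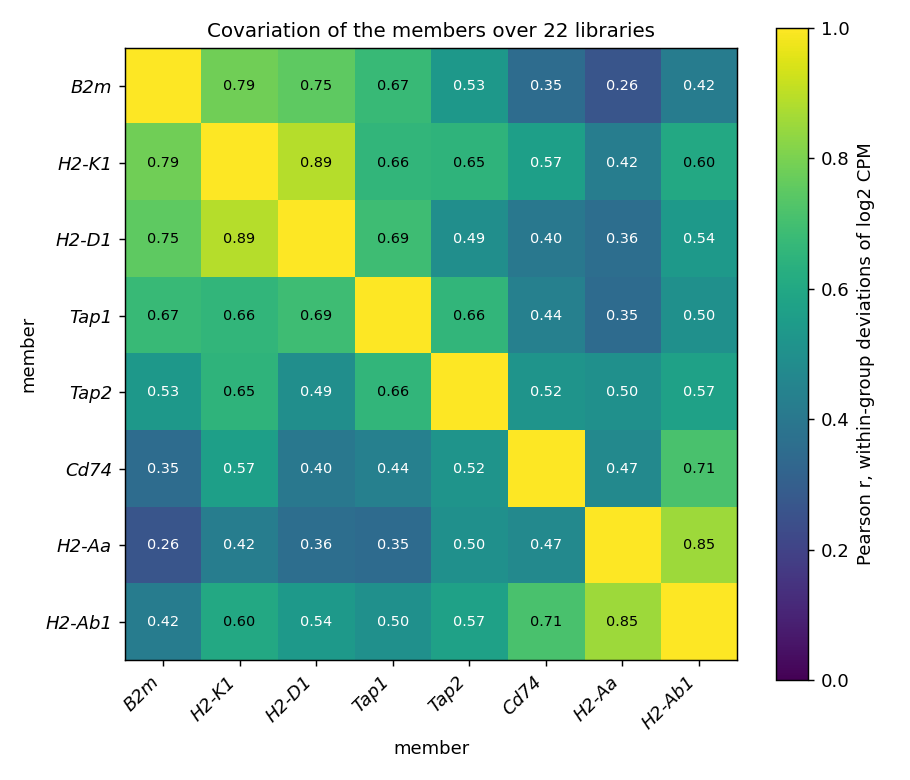
Pearson r between every 2 of the 8 genes (x and y axes) for deviations of log2 CPM from the group mean over 22 libraries, with r printed in each cell and shown as colour. H2-K1 with H2-D1 (0.89) and H2-Aa with H2-Ab1 (0.85) are the brightest cells off the diagonal, and B2m with H2-Aa (0.26) is the darkest.

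Markers of other cell types moved with the class II genes. Markers of border-associated macrophages summed to 6.30 to 22.7 CPM in males labelled cKO against 5.34 to 15.9 CPM in males labelled WT, and to 5.97 to 15.5 CPM in females labelled cKO against 8.24 to 10.5 CPM in females labelled WT. Of 8 such markers 5 were tested in both sexes and 0 passed in edgeR, Mrc1 at 0.36 and Cd163 at 0.17 among them (adjusted p = 0.435 and 0.754). All 5 lay above 0 in both sexes, with a median of 0.36. Leptomeningeal markers summed to 56.5 to 196 CPM in males labelled cKO against 49.4 to 102 CPM in males labelled WT, and to 48.2 to 105 CPM in females labelled cKO against 60.1 to 69.1 CPM in females labelled WT. Of 8 tested in both sexes 1 rose, the collagen gene Col1a1 (0.68, adjusted p = 0.0262), while Dcn and Lum had 0.57 and 0.49 (adjusted p = 0.0799 and 0.0860). The median of the 8 was 0.29 in both sexes, with Slc6a13 lowest at -0.29 (adjusted p = 0.690), and in females it was 0.07, with 4 of 8 above 0.

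Within groups, the mean of Cd74, H2-Aa and H2-Ab1 followed the border-associated macrophage sum (r = 0.85, rho = 0.82, permutation p = 0.00013 and 0.0002, adjusted p = 0.00312 and 0.00480) and the leptomeningeal sum (r = 0.86, rho = 0.76, permutation p = 0.00039 and 0.00138, adjusted p = 0.00468 and 0.0166). Without the 2 farthest libraries r was 0.76 and 0.72. These were 2 of 24 relations of the class I and class II means to 12 lists, added after the values were seen. By rho alone the class II mean also followed the endothelial sum (r = 0.58, rho = 0.65, permutation p = 0.0334 and 0.00515, adjusted p = 0.1 and 0.0412). Its r with that sum was 0.61 without the 2 farthest libraries. With the microglia sum the class II mean had r = 0.26 and rho = 0.12 (permutation p = 0.243 and 0.605, adjusted p = 0.395 and 0.799). With the oligodendrocyte sum it had r = -0.44 and rho = -0.48 (permutation p = 0.0657 and 0.037, adjusted p = 0.158 and 0.111). Oligodendrocyte markers summed to 2402 to 12140 CPM in males labelled cKO and 1768 to 9816 CPM in males labelled WT. In females they summed to 4339 to 13930 CPM and 3107 to 10070 CPM. In bulk tissue fewer cells of a type and less RNA per cell cannot be told apart, and the part of these cells in the Cd74 result was not tested.

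In females the leptomeningeal sums of the groups overlapped, those labelled WT spanning 60.1 to 69.1 CPM. Of those labelled cKO, replicates 20, 24 and 27 lay above that range, 22 within it and 21 and 23 below it. Female cKO replicate 21 had the lowest such sum of its group, 48.2 CPM, and 6.38 CPM of Cd74. Replicate 20 had the highest sum of that group, 105 CPM, and 5.87 CPM of Cd74. Female cKO replicate 23 had the lowest Cd74 of its group, 4.62 CPM, at a sum of 53.6 CPM. Replicate 22 had the highest Cd74, 7.76 CPM, at a sum of 66.6 CPM. Replicates 24 and 27 had 5.63 and 5.90 CPM of Cd74, at sums of 77.6 and 81.35 CPM. The part of leptomeningeal tissue in these Cd74 values was not tested.

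**Figure D5:**
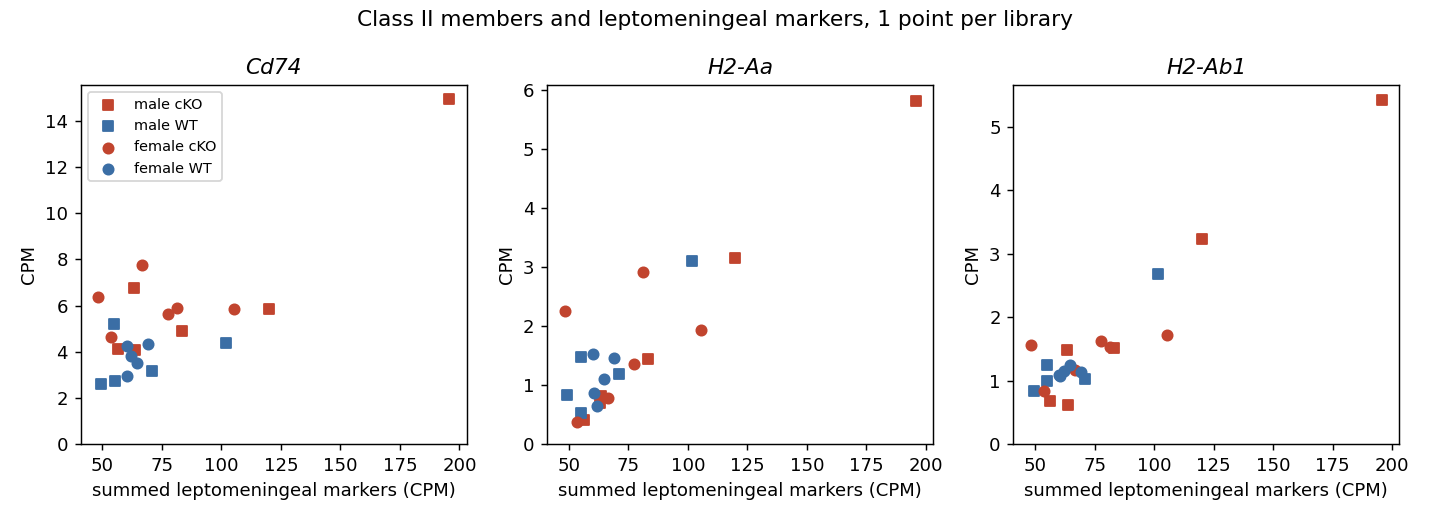
Level of Cd74, H2-Aa and H2-Ab1 in CPM (y axes) against the summed leptomeningeal markers in CPM (x axes) in every library, with colour for the label and shape for the sex. Male cKO replicate 9 lies at the far right in each panel (196 CPM of markers), and in the Cd74 panel the 6 females labelled cKO lie above the 5 labelled WT at sums between 48.2 and 105 CPM.

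Microglia markers overlapped in sum, at 394 to 464 CPM in males labelled cKO against 362 to 422 CPM in males labelled WT, and 421 to 511 CPM in females labelled cKO against 416 to 488 CPM in females labelled WT. Of 12 markers 0 passed in any fit of edgeR, with P2ry12 at -0.01 and Tmem119 at 0.20 in both sexes (adjusted p = 0.950 and 0.198). Markers of dendritic cells, B cells, T and NK cells, and monocytes and neutrophils were mostly under the filter, with 3, 1, 3 and 0 tested in both sexes. The single call among them was a fall of the dendritic marker Zbtb46 (-0.56, edgeR adjusted p = 0.00294). Zbtb46 averaged 16.8 CPM over all libraries, and the other 2 dendritic markers tested in both sexes did not pass. Whether its value stands for dendritic cells was not tested. Itgax, Cd79a and Ccr2 averaged 0.31, 0.22 and 0.30 CPM over all libraries.

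The class I mean followed the summed interferon-stimulated genes (r = 0.64, rho = 0.58, permutation p = 0.00409 and 0.0111, adjusted p = 0.0327 and 0.0458), with r = 0.47 without the 2 farthest libraries. Each gene entered that sum by its CPM, and Ly6e, averaging 111.5 CPM over all libraries, had the largest share. The class I mean also followed the choroid plexus sum (r = 0.57, rho = 0.51, permutation p = 0.00793 and 0.0194, adjusted p = 0.0476 and 0.0665), with r = 0.42 without the 2 farthest. By rho alone it followed the red blood cell sum (r = 0.57, rho = 0.61, permutation p = 0.0116 and 0.0082, adjusted p = 0.0557 and 0.0458) and, inversely, the cortical excitatory neuron sum (r = -0.50, rho = -0.56, permutation p = 0.0300 and 0.0115, adjusted p = 0.1 and 0.0458), with r = 0.44 and -0.47 without the 2 farthest. Choroid plexus markers summed to 12.4 to 32.2 CPM in males labelled cKO against 11.5 to 39.7 CPM in males labelled WT, and to 14.3 to 611 CPM in females labelled cKO against 6.395 to 35.46 CPM in females labelled WT. Female cKO replicate 21, at 611 CPM, was also the highest female library labelled cKO for B2m, H2-K1, H2-D1, Tap1 and Tap2. The part of choroid plexus tissue in these values was not tested.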

How the data were processed

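RNA was sequenced in bulk from 22 mice, with 11 libraries per sex. The authors deposited whole-number read counts per gene, with males and females in separate tables. The submitters' processing notes name cutadapt, STAR, HTSeq and DESeq2, with GRCm39 as the build. How these were run, on which annotation and with which strand setting, is not given in the sources used here, so reads of overlapping or antisense genes cannot be told apart. The deposited tables also hold the authors' log2 fold change and adjusted p-value per gene, quoted where named. A further 22 columns, of normalized counts, were left unused. One count column numbered 20 matched no title and was used as a female cKO replicate, the group its name shows.

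Genes were kept by filterByExpr with a minimum count of 10 and a minimum total of 15, and TMM factors set the scale. Tests were quasi-likelihood F tests in edgeR 4.0.16 under R 4.3.3. A gene was called at an adjusted p below 0.05 (Benjamini-Hochberg over all genes). Males and females were fitted separately. The fit of both sexes held sex and genotype, and the difference between sexes was their interaction. Levels are CPM with TMM factors of all 22 libraries. Covariation used deviations of log2 CPM (prior count 2) from the group mean, with 100000 permutations within groups. The tests were tried on simulated data. DESeq2 1.42.0, other scalings, no filter, 1 fit of all 4 groups and leaving out each library served as alternatives. Promoter sequences and gene order are from RefSeq GRCm38.p6, and exon lengths from GENCODE on GRCm38.

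The 8 genes and the gene lists were chosen with earlier results of these data known. Named were the 8 genes, every list gene past the threshold, the 2 most abundant genes of each pathway list, the 3 with the smallest p over these lists in each fit of genotype, the 3 genes most like each class, and the first 2 markers of a cell type list. One gene that this rule names is not reported here. Other genes named were chosen after their values were seen.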

Additional observations from a re-analysis of the deposited data

Results flagged for a closer look

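The level of each of the 8 genes was checked in each of the 4 groups for a library far from the others, 32 checks in all, of which chance flags about 5%. The values that stood apart were those of Cd74 in male cKO replicate 9 and of H2-Ab1 in male WT replicate 6. Cd74 in male cKO replicate 9 was at 14.9 CPM, where the next library of its group was at 6.76 CPM. H2-Ab1 in male WT replicate 6 was at 2.68 CPM, where the next of its group was at 1.25 CPM. Leptomeningeal markers summed to 196 CPM in male cKO replicate 9 and to 102 CPM in male WT replicate 6, the highest of each group. Their part in these values was not tested.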

How the results depend on the processing

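Counting depth limits H2-Aa and H2-Ab1 most, with as few as 6 reads of H2-Aa and 9 of H2-Ab1 in a library. No paired analysis was possible because the groups share no replicate number. No member fell below the filter, so the exact test planned for such genes was not needed. The cause of each change below was not tested. The count of members past the threshold was 2 in both sexes with DESeq2 (Cd74 and H2-K1) and 0 in females in 1 fit of all 4 groups. With 1 library left out it was 0 to 1 in females and 1 to 2 in both sexes. Of all genes, DESeq2 called 335 in males and 919 in females, and the fit of all 4 groups 276 and 294, where edgeR within each sex called 94 and 543. With 1 library left out these were 18 to 201 in males, where leaving out any library but WT replicate 1 moved the count by over 1.5 times, and 324 to 681 in females, where leaving out cKO replicate 27 or WT replicate 18 or 19 did.

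Pairs of members past the threshold numbered 4 in females alone and 11 without male cKO replicate 9 and female cKO replicate 21, against 18 of 28, and 12 to 20 with 1 library left out. With 1 library left out, log2 fold changes that changed sign ranged from -0.0781 to 0.203 for Tap1 and from -0.12 to 1.05 for H2-Aa in males and from -0.0184 to 0.280 for Tap2 in females. Differences between sexes ranged from -0.107 to 0.0446 for B2m, -0.142 to 0.0772 for H2-K1, -0.121 to 0.0798 for H2-D1, -0.16 to 0.14 for Tap2, -0.39 to 0.17 for Cd74, -0.53 to 0.63 for H2-Aa and -0.76 to 0.16 for H2-Ab1. Without both libraries named above they were 0.16 for Cd74, 0.51 for H2-Aa and 0.13 for H2-Ab1. None of these passed the test in any fit. The other scaling moved the median of all genes by at most 0.01 on the log2 scale. Leaving out both libraries was chosen after seeing the data.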
